A study of Mus musculus with 2 samples.

Results

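The genes described here are 5 members of the CCN family and 5 genes of the YAP pathway, picked by symbol from the 24091 genes of the deposited table, and all 10 were found in it. The CCN genes carry their older names in the table, namely Ctgf (now Ccn2), Cyr61 (Ccn1), Nov (Ccn3), Wisp1 (Ccn4), and Wisp2 (Ccn5). The genes of the YAP pathway are Ankrd1, Amotl2, Lats2, Yap1, and Wwtr1. The set was proposed with the difference between the libraries already known, so that difference is a description here and carries no test.

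The data were RNA sequencing of 1 library from sham-irradiated C57BL/6 mice (the sham library) and 1 library from C57BL/6 mice that received pelvic irradiation (the irradiated library), labelled as 7.5 Gy and 5 days without saying whether the dose was daily or total. Both sample titles also name PBS, without saying what received it, and no source used here gives the age, sex, or number of mice behind each library. In both groups, collagenase was used to dissociate gonadal fat taken 2 months after the radiation, and the cells that floated were cultured for 3 days before polyadenylated RNA was extracted. The comparison asks how these cultures from irradiated and unirradiated mice differed.

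The 2 libraries are labelled as primary adipocytes, but most of the 12 adipocyte markers were low. Adiponectin (Adipoq) was covered by 5 fragments (sham) and 10 fragments (irradiated), and 8 of the 12 were under an FPKM of 1 in both, with leptin (Lep) at 0 fragments in the sham library. FPKM scales the fragments of a gene to its length in kilobases and to the library total. The other 4 were measured at higher levels, with an FPKM of 96.9 in both libraries for the fatty acid binding protein gene Fabp4, 13.4 and 14.4 for Cebpa, 5.11 and 5.76 for Pnpla2, and 4.59 and 4.69 for Pparg. The summed FPKM of 10 fibroblast markers was 3634 and 2938, against 123 and 125 for the adipocyte markers. Without their most abundant genes, the sums were 824 and 816 for 8 fibroblast markers (Col1a1 and Col3a1 left out). They were 25.7 and 28.2 for the 11 adipocyte markers without Fabp4. The libraries held 30600000 fragments (sham) and 35000000 fragments (irradiated), as recovered from the deposited values, and 11253 genes (the genes kept) had an FPKM of 1 or more in either or both. In such bulk RNA, fewer cells of a type and less RNA per cell cannot be told apart.

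The Hippo pathway is a chain of kinases that ends in LATS1 and LATS2, which phosphorylate the coactivators YAP (Yap1) and TAZ (Wwtr1) and keep them out of the nucleus. Unphosphorylated YAP and TAZ enter the nucleus and bind TEAD transcription factors at genes such as Ctgf, Cyr61, and Ankrd1, and cell spreading, stiff surfaces, and contractile tension are well-known inputs. The CCN proteins are secreted, cysteine-rich matricellular proteins that bind integrins, heparan sulfate, and growth factors, and Ctgf in particular is widely used as a marker of fibrotic tissue. YAP and TAZ activity is regulated mostly through phosphorylation and location of the proteins, which RNA sequencing does not measure.

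The promoter sequences are shown first because TEAD binding is the step that links YAP and TAZ to these genes. RefSeq sequences of assembly GRCm38.p6 (mm10 in the submitters' processing notes) held windows of 300 bases, 250 before the annotated start and 50 from it on, for 6 of the 10 genes, while the promoter table used here held no window for Ctgf, Nov, Wisp1, and Wisp2. Each of the 6 genes had at least 1 match to the TEAD motif GGAATG on either strand (CATTCC on the other). Among all 27025 genes with such a window, 16.6% had a match. The windows of the 2 genes that had one and were higher by at least 0.5 (log2) in the irradiated library are printed whole, 5′ to 3′ on the strand of the gene, with the matches in capitals. The Cyr61 window lies at chr3:145649936-145650235 (minus strand) and the Ankrd1 window at chr19:36119795-36120094 (minus strand).
Cyr61: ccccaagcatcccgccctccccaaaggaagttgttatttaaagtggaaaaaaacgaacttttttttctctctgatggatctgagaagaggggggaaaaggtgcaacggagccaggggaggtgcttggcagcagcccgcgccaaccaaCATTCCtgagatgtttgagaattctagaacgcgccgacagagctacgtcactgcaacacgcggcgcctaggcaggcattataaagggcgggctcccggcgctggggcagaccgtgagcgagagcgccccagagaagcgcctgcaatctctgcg
Ankrd1: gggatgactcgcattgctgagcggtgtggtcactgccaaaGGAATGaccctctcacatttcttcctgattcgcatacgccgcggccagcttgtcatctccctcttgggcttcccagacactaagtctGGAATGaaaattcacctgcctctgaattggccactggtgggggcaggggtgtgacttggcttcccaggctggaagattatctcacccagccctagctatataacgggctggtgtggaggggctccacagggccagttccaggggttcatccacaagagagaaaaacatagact

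Ankrd1 was the only one of the 6 with 2 separate matches, which began at positions -210 and -123 (counted from the annotated start as 1), and the match of Cyr61 began at -103. For the other 4 genes, the match with 20 bases on either side is given, since their levels differed by less between the libraries although their windows hold the same letters. The stretches lie at chr9:102717719-102717764 (plus strand, Amotl2), chr14:57746094-57746139 (minus strand, Lats2), chr9:8004712-8004757 (minus strand, Yap1), and chr3:57576021-57576066 (minus strand, Wwtr1).
Amotl2: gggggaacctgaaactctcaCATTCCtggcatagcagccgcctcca
Lats2: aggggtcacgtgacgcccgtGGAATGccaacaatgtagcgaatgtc
Yap1: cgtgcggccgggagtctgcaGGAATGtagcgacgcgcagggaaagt
Wwtr1: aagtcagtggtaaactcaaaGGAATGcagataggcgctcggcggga

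The match of Amotl2 began at -65 from a start inside the gene. Its whole window (chr9:102717554-102717853) lies downstream of the deposited gene start at 102716802 and of the RefSeq gene start at 102717091. The match of Yap1 began at -141, and that of Wwtr1 at -136 from the more upstream of its 2 annotated starts. In Lats2 it began at 5, after the more upstream of its 2 starts, and the window of the other start had none. The AP-1 motif TGANTCA, found in 7.81% of all 32851 windows, and the CArG box bound by SRF, found in 1.63%, had no match in the windows of the 6 genes. A match is a string of letters and not a measured binding site, and elements outside these windows were not searched.

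**Figure D1:**
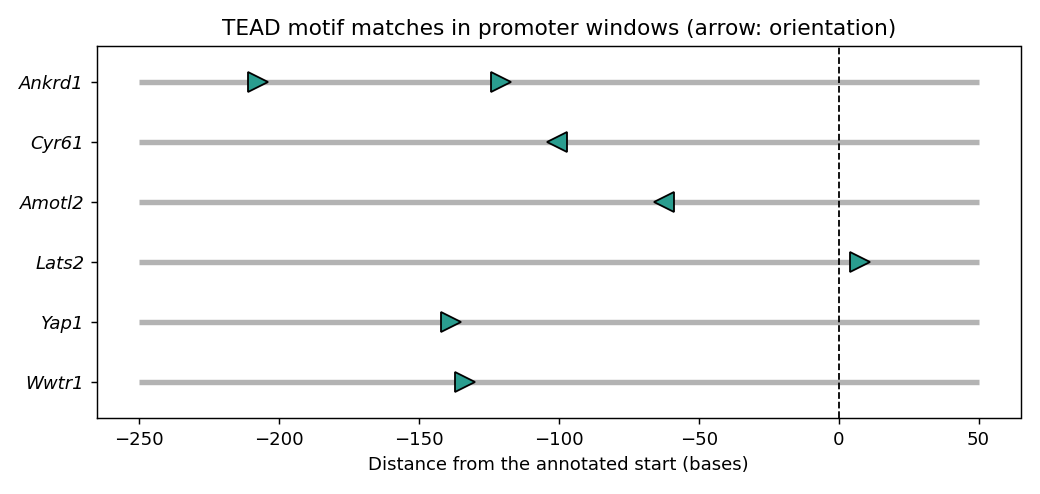
Position of TEAD motif matches (arrows, pointing right for GGAATG on the strand of the gene and left for the other strand) in the windows of 6 genes, as distance in bases from the annotated start (dashed line). Ankrd1 has 2 matches and the other 5 genes have 1 each. For Lats2 and Wwtr1 the window of the more upstream start is drawn, and for Amotl2 the start lies inside the deposited range of the gene.

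Of the 10 genes, Ankrd1, Nov, Ctgf, and Cyr61 were higher in the irradiated library by at least 0.5 on the log2 scale (1.41-fold), and 0 were lower by that amount. Cyr61 was at the threshold, with 0.49 when differences were centred on their median and 0.496 when scaled without the 100 most abundant genes, which left 3 of the 10. Across the 11253 genes kept, 4.31% were higher by at least 0.5, 1.44% were lower, and 5.75% differed in either direction. Ankrd1 was the only one of the 10 past 1, where 0.791% of genes kept were higher and 0.373% lower. By sign alone, 6 of the 10 were higher and 4 were lower, against 53.5% and 44% of genes kept, the rest being equal. Since the genes were picked with these differences known, nothing is read from their count against that background. The median difference was 0.145 over the 10 genes and 0.02 over all genes kept, and the 10 differences ran from -0.21 to 1.49. The middle 95% of all genes kept lay between -0.377 and 0.647, and Ankrd1, Nov, and Ctgf were above it. All differences are of log2(FPKM + 0.1), irradiated minus sham-irradiated, and each interval is the exact 95% (Clopper-Pearson) interval of the log2 ratio of fragments, which covers counting error only. With 1 library per group, variation between mice and cultures is not in it.

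**Figure D2:**
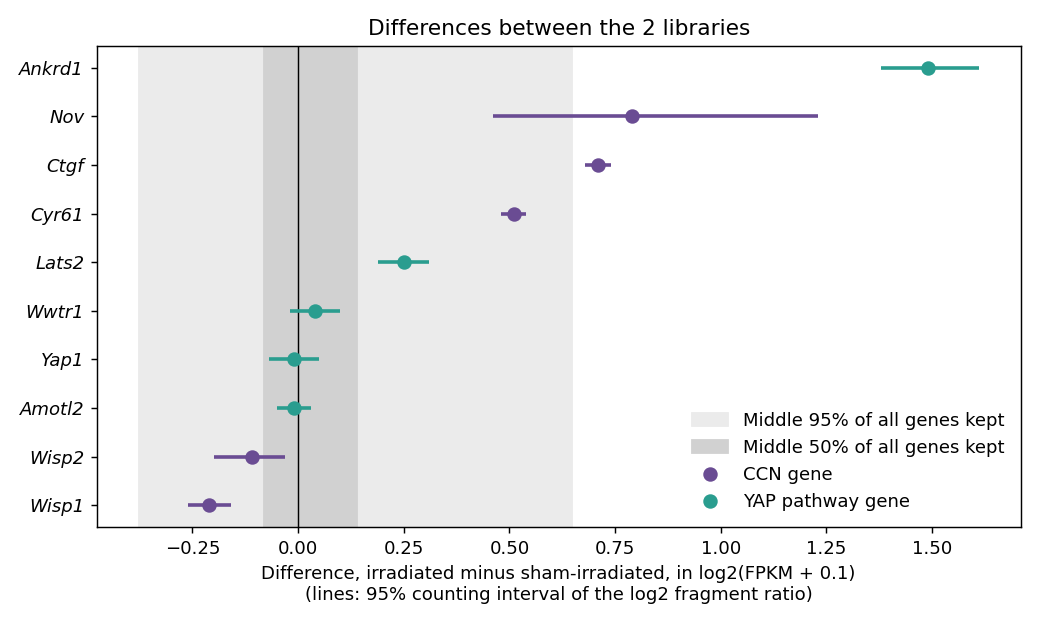
Difference of each gene between the libraries on the log2(FPKM + 0.1) scale (points), with the 95% counting interval of the log2 fragment ratio (lines), beside the middle 50% and 95% of all genes kept (grey bands). Ankrd1 stands farthest out at 1.49, Nov, Ctgf, and Cyr61 follow at 0.79 to 0.51, and Amotl2, Yap1, and Wwtr1 sit between -0.01 and 0.04.

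Among the CCN genes, the 2 abundant members were higher in the irradiated library. Ctgf (chr10:24595442-24598682), the classical fibrosis-associated CCN protein, had an FPKM of 259 in the sham library and 425 in the irradiated library, on 19032 and 35614 fragments. Its difference was 0.71 (interval 0.68 to 0.74), a ratio of 1.64, and it moved from rank 160 to rank 101 of all genes by FPKM. Cyr61 (chr3:145646971-145649985), an integrin ligand that acts in adhesion and wound repair, had an FPKM of 229 and 326, on 14178 and 23096 fragments. Its difference was 0.51 (interval 0.48 to 0.54), a ratio of 1.42, and its rank went from 183 to 133. The counting intervals of these 2 differences did not overlap. They hold no variation between mice or cultures, so whether Ctgf differed more than Cyr61 was not tested.

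The place of these 2 genes among abundant genes is given as a description only, since they were picked with their differences known. Among 525 genes that reached an FPKM of 100 in either library, a limit chosen after the values were seen, 4.19% were past 0.5 upward and 1.52% downward. These shares were close to the 4.31% and 1.44% of all genes kept. In this group, 8 genes, Ctgf included, were higher by at least the 0.71 of Ctgf. Together Ctgf and Cyr61 had an FPKM of 488.5 in the sham library and 751 in the irradiated library, 85.6% and 91.0% of the summed FPKM of the 5 CCN genes.

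Nov (chr15:54745928-54753761), a CCN protein often described as opposing Ctgf in fibrosis, was the rarest member in both libraries. It had an FPKM of 1.2 in the sham library and 2.15 in the irradiated library, on 87 and 178 fragments, and its interval of 0.46 to 1.23 around a difference of 0.79 was the widest of the set. With log2(FPKM + 1), which shrinks low genes more, the difference of Nov was 0.52. The FPKM of Ctgf was 216 times that of Nov in the sham library and 197 times in the irradiated library.

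Wisp1 and Wisp2, both first described as WNT1-induced genes, lay on the other side of 0. Wisp1 (chr15:66891393-66923199) had an FPKM of 40.1 in the sham library and 34.7 in the irradiated library, a difference of -0.21 (interval -0.26 to -0.16). Wisp2 (chr2:163820834-163833147), known as a secreted product of adipose precursor cells, had an FPKM of 40.7 and 37.7, a difference of -0.11 (interval -0.20 to -0.03). Both were small beside the spread of all genes, since 8.27% of genes kept were at least as low as Wisp1 and 19.9% at least as low as Wisp2. The CCN genes thus did not share 1 direction: Ctgf had 6.38 times the FPKM of Wisp2 in the sham library and 11.26 times in the irradiated library. The sixth family member, Wisp3 (now Ccn6), had 1 fragment in the sham library and 0 in the irradiated one, so no difference was detectable at this depth.

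**Figure D3:**
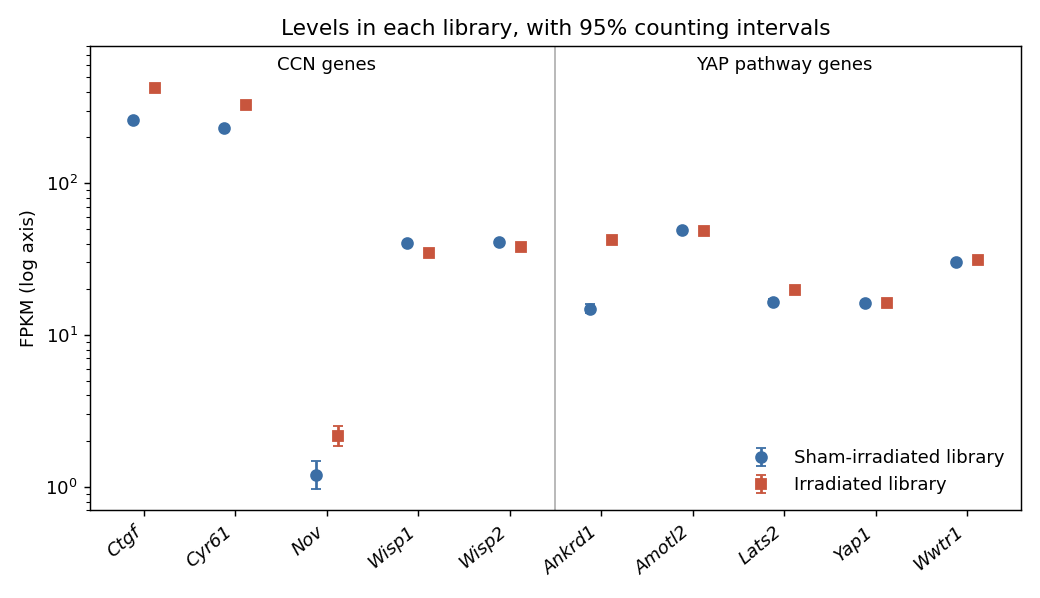
FPKM of the 10 genes (log axis) in the sham library (circles) and the irradiated library (squares), 1 library each, with exact 95% Poisson counting intervals that are mostly smaller than the symbols. Ctgf and Cyr61 lie at 229 or above in both libraries, Nov lies lowest at 1.2 and 2.15, and Ankrd1 goes from 14.9 to 42.1.

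Of the YAP pathway genes, Ankrd1 showed the largest difference of the whole set. Ankrd1 (chr19:36111965-36119844) encodes a stretch-responsive ankyrin repeat protein of the nucleus and sarcomere and is one of the most used YAP and TAZ readouts. It had an FPKM of 14.9 in the sham library and 42.1 in the irradiated library, on 802 and 2589 fragments. The difference was 1.49 (interval 1.38 to 1.61), a ratio of 2.82, and its rank went from 3730 to 1346. As a description, 28 of the 11253 genes kept, Ankrd1 included, differed upward by at least as much, and so did 8 of the 7538 genes that reached an FPKM of 5.

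Amotl2 and Lats2 are targets of YAP and TAZ that act back on them as inhibitors, Amotl2 by binding YAP at junctions and Lats2 by phosphorylating it. Amotl2 (chr9:102716802-102733417) had an FPKM of 48.7 and 48.4, a difference of -0.01 (interval -0.05 to 0.03). Lats2 (chr14:57642029-57746123) had an FPKM of 16.6 and 19.7, a difference of 0.25 (interval 0.19 to 0.31), and 13.8% of genes kept were at least as high. The deposited range of Lats2 overlaps the neighbouring gene Xpo4 on the same strand from 57642029 to 57664956. RefSeq places Lats2 at 57689662-57746212, so this shared stretch lies outside the RefSeq range of the gene. Xpo4 had an FPKM of 7.96 and 7.68, and no source used here says how fragments in the shared stretch were counted.

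The RNA of the coactivators themselves was nearly level. Yap1 (chr9:7932001-8004596) had an FPKM of 16.3 in the sham library and 16.2 in the irradiated library, a difference of -0.01 (interval -0.07 to 0.05). Wwtr1 (chr3:57455644-57575910), which encodes TAZ, had an FPKM of 30.4 and 31.2, a difference of 0.04 (interval -0.02 to 0.10). Wwtr1 was 1.86 times as abundant as Yap1 per length in the sham library and 1.92 times in the irradiated library. The FPKM of Ankrd1 was 0.91 times that of Yap1 in the sham library and 2.59 times in the irradiated library, a ratio taken within each library and so independent of library scaling.

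**Figure D4:**
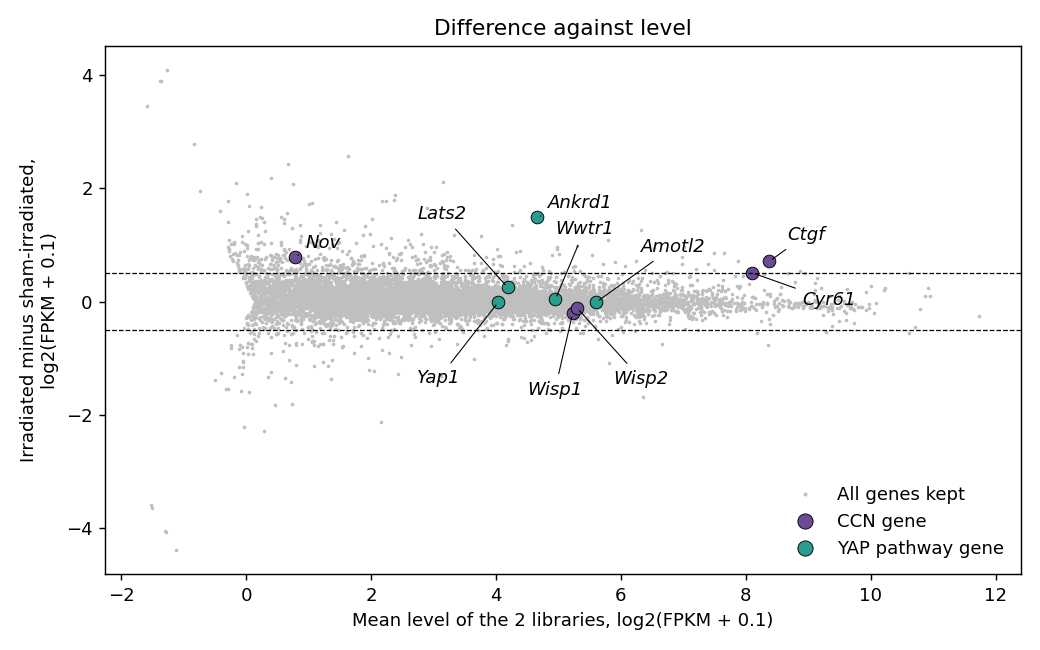
Difference between the libraries against mean level, both in log2(FPKM + 0.1), for the 11253 genes kept (grey) and the 10 genes described, with dashed lines at 0.5 and -0.5. Ankrd1, Ctgf, Cyr61, and Nov lie above the upper line, and the other 6 lie between the lines within the body of all genes.

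In order of FPKM, the sham library gave Ctgf, Cyr61, Amotl2, Wisp2, Wisp1, Wwtr1, Lats2, Yap1, Ankrd1, and Nov. Neighbours in this order whose counting intervals overlapped were Wisp2 and Wisp1, Lats2 and Yap1, and Yap1 and Ankrd1. In the irradiated library, Ankrd1 stood between Amotl2 and Wisp2, the order of the other 9 was the same, and no neighbours had overlapping intervals.

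Other genes described as YAP and TAZ targets were mixed. Of 17 such genes, all kept, 12 were higher in the irradiated library and 5 lower, with a median difference of 0.13, where 53.5% of all genes kept were higher. By at least 0.5, 2 were higher and 1 was lower, beside 4.31% higher and 1.44% lower over all genes kept. Nuak2, an AMPK-related kinase that promotes actomyosin contraction, had an FPKM of 3.98 and 7.21 and a difference of 0.84 (interval 0.68 to 1.03). Dock5, an activator of the small GTPase Rac, had 3.74 and 6.05 and a difference of 0.68 (interval 0.60 to 0.79). In contrast, Igfbp3, a binding protein of insulin-like growth factors, had 81.5 and 38.2 and a difference of -1.09 (interval -1.15 to -1.03). The summed FPKM of this list was 553 in the sham library and 544 in the irradiated library. The TEAD motif stood in the windows of 3 of the 11 listed targets that had one, Axl, Crim1, and Ptpn14, where 16.6% of all genes had a match. Among the other lists, it was found for 4 of 6 TEAD and VGLL genes, 5 of 19 Hippo regulators, and 1 of 7 CCN receptor genes with a window.

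The upstream genes of the pathway mostly differed by less than 0.5, and more often upward. Of 23 Hippo regulators (kinases, adaptors, and junction proteins that act on LATS or YAP), 21 were kept, of which 19 were higher and 2 lower, with a median difference of 0.09 and a range from -0.07 to 0.58. Over all genes kept, 53.5% were higher, the median was 0.02, and 4.31% were higher and 1.44% lower by at least 0.5. Wwc1, which encodes the LATS-activating scaffold KIBRA, was the only one past 0.5, with a difference of 0.58 (interval 0.22 to 1.07). It had an FPKM of 0.735 and 1.15, on 74 and 132 fragments. Wwc1 was kept only through the irradiated library, where it was higher, so its part in these counts and in the range carries no weight. Of 8 TEAD and VGLL genes, which encode the DNA-binding partners of YAP and their other cofactors, 5 were kept, 3 higher and 2 lower, with none past 0.5. Of these 5, Tead3 had the largest difference, 0.20 (interval 0.07 to 0.34). Tead4 was under the limit of an FPKM of 1 and was named after its value was seen, with an FPKM of 0.341 and 0.833 on 32 and 89 fragments, a difference of 1.08 (interval 0.68 to 1.91). Tead1, the most abundant TEAD gene, had 39.3 and 42.4, a difference of 0.11, and was also named after its value was seen.

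Of 11 receptor genes through which CCN proteins are known to act, 8 were higher, 2 were lower, and 1 was equal, with a median difference of 0.13, beside the same 53.5% higher and median of 0.02 over all genes kept. By at least 0.5, 2 receptor genes were higher and 0 were lower, where 4.31% and 1.44% of all genes kept were. Itga6, an integrin subunit that pairs with integrin β1 or β4, had an FPKM of 2.63 and 4.25, a difference of 0.67 (interval 0.55 to 0.83). Itgb2, the β subunit of the leukocyte integrins, had 28.3 and 40.7, a difference of 0.52 (interval 0.45 to 0.59). Among the rest, named after their values were seen, Itgb1 had 292 and 338 (difference 0.21), and the endocytic receptor Lrp1 had the same 127.9 in both libraries.

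**Figure D5:**
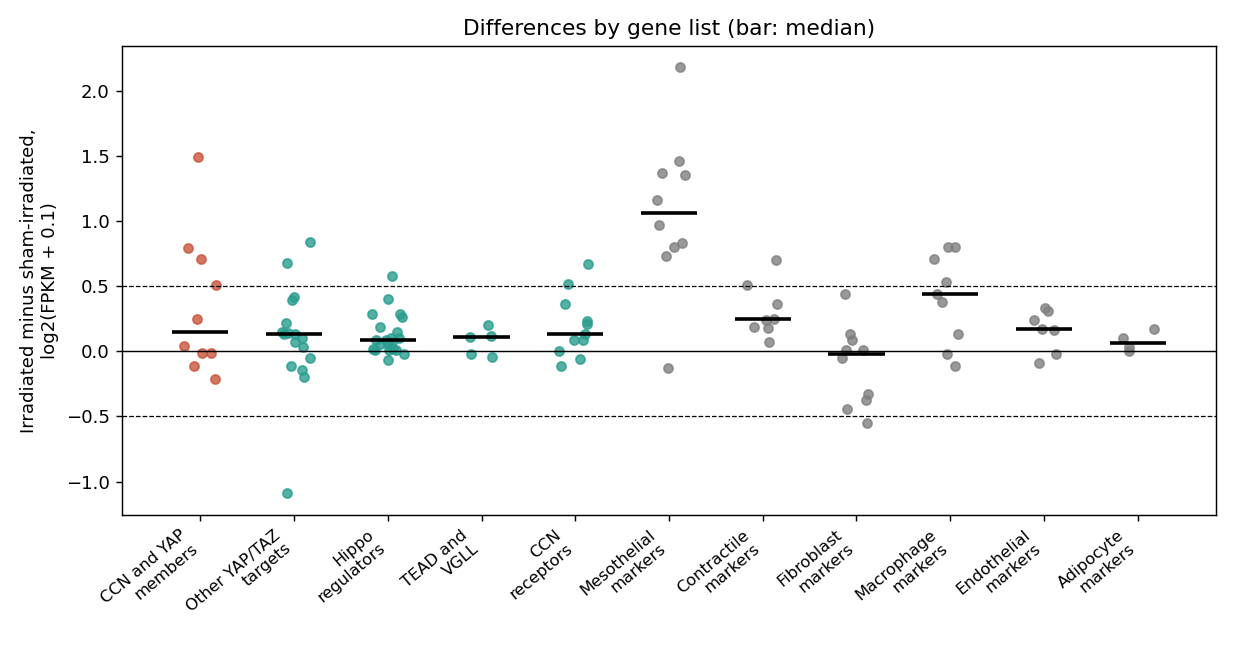
Differences between the libraries in log2(FPKM + 0.1) for the kept genes of each list (1 point per gene), with the list median as a bar and dashed lines at 0.5 and -0.5. The medians of the other targets, Hippo regulators, TEAD and VGLL genes, and CCN receptors lie at 0.09 to 0.13, below the 1.065 of the mesothelial markers. Several mesothelial markers were kept only through the irradiated library, which raises that median.

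Markers of other cell types also differed between the libraries. Beside the counts below, 4.31% of all genes kept were higher by at least 0.5, 1.44% were lower by that amount, and 53.5% were higher by any amount. Mesothelial cells line the fat pad, and of 11 mesothelial markers, 10 were in the table and 9 of them were higher by at least 0.5. These were Msln, Krt19, Upk3b, Krt8, Krt18, Upk1b, Gpm6a, Lrrn4, and Bnc1, with a largest difference of 2.18 for Msln, and the remaining Wt1 had -0.13. However, Msln, Krt19, Upk3b, Krt18, and Gpm6a were under an FPKM of 1 in the sham library. They were kept only through the irradiated library, where they were higher, so their part in the count carries no weight. Msln had an FPKM of 0.52 and 2.71, on 34 and 202 fragments. The summed FPKM of the mesothelial markers was 38.1 in the sham library and 55.7 in the irradiated library, and none was at 0. All 8 contractile and mural markers were higher, by 0.07 to 0.70, with summed FPKM of 929 and 1181, and Cspg4 (0.70) and Tagln (0.51) were past 0.5. Cspg4, at an FPKM of 0.795 and 1.35, was likewise kept only through the irradiated library. Of 9 macrophage markers, 7 were higher and 2 were lower, with a median of 0.44. C1qa and C1qc (both 0.80), Cd68 (0.71), and Mrc1 (0.53) were past 0.5, while Lyz2 had -0.11 and Adgre1 -0.02. The macrophage sums were 587 and 625, of which Lyz2 alone gave 443 and 410, and the other 8 markers summed to 144 and 215. Of the 10 fibroblast markers, 5 were higher and 5 were lower, with a median of -0.02 and a range from -0.55 (Pi16) to 0.44 (Dpp4). Dpp4, at an FPKM of 0.886 and 1.24, was also kept only through the irradiated library. The lower fibroblast sum in the irradiated library came with the collagen genes Col1a1 (1937 and 1428) and Col3a1 (873 and 694). The other 8 fibroblast markers summed to 824 and 816, of which Dcn alone gave 549 and 552. Pdgfra, also among these 8, was lower, at 95.6 and 73.9 (difference -0.37). No endothelial marker reached 0.5, and the largest difference was 0.33 for Emcn, with sums of 43.3 and 47.2. Of the adipocyte markers, 4 were kept, with differences from 0 to 0.17, the largest that of Pnpla2. The part of these cell types in the differences of Ankrd1, Ctgf, Cyr61, and Nov was not tested, and with 1 library per group, radiation and any other difference between the cultures cannot be told apart.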

How the data were processed

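RNA was sequenced from 2 libraries, 1 sham-irradiated and 1 irradiated, which were assigned from their treatment labels. Expression was deposited by the authors as log2(FPKM + 0.1) with 2 decimals, beside gene length in kilobases and coordinates. Per the labels, the RNA was polyadenylated, the preparation stranded, and the build mm10, while the aligner, counting tool, and filters were not given in the sources used here. The table had no further columns of measurements.

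FPKM was recovered by subtracting 0.1 after exponentiation. The total of each library was the smallest number for which FPKM times length gave whole fragments over genes with few fragments. All such genes, 2039 (sham) and 2220 (irradiated), came within 0.12 of whole numbers, and 86.8% and 86.9% of fragments were on listed genes. The recovery and the intervals were tested on simulated data. Fragments of abundant genes are approximate because of rounding. Genes with 0 fragments could have had up to 3, an FPKM of 0.098 and 0.0857 on 1 kb, and these limits and all intervals cover counting error only, since copies made by PCR are not independent molecules.

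With 1 library per group, no test was run and no p-value was computed. Genes were kept where either library had an FPKM of 1 or more, and differences of at least 0.5 were counted. The members, gene lists, and thresholds were chosen with earlier results of these data known. By rule, the text names all 10 members and, in each list, every kept gene past 0.5 or else the one with the largest difference. No genes of like pattern were sought, since each gene has 1 difference. The chromosomes of all 10 members matched RefSeq GRCm38.p6, and 7 had a start or end within 1 base, the exceptions being Wisp1, Lats2, and Yap1. Alternatives were a pseudocount of 1 or none, no filter or an FPKM of at least 5, 2 other scalings, a threshold of 1, and list means. Marker sums without their most abundant genes were added after seeing the data. The work used SciPy 1.17.1, matplotlib 3.10.9, pandas 2.3.3, and numpy 2.4.6 under Python 3.11.15.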

Additional observations from a re-analysis of the deposited data

How the results depend on the processing

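No paired analysis was possible because each group had 1 library, and for the same reason no replicate could be left out. The difference of each of the 10 genes kept its sign and stayed within its counting interval with log2(FPKM + 1), with no pseudocount, when centred on the median difference, and when scaled without the 100 most abundant genes. The interval is built around the difference with no pseudocount, and centring or scaling shifts all genes by the same small amount. Staying inside it was therefore largely built in. The difference of Nov was 0.52 with log2(FPKM + 1). Cyr61 sat at the threshold: its 0.51 became 0.49 when centred and 0.496 when scaled, and 3 of the 10 genes were then higher by at least 0.5. With an FPKM of at least 5, Nov was left out, and 3 of 9 were higher. With a threshold of 1, Ankrd1 alone remained, so the count was 1. Under these settings and with means, the median differences of the Hippo regulators, TEAD and VGLL genes, other targets, and CCN receptors were all above 0, from 0.055 to 0.194. Counts over all genes depended on the settings: the 485 higher and 162 lower genes became 263 and 96 with log2(FPKM + 1), 1324 and 681 with no filter, 186 and 56 with an FPKM of at least 5, 22 and 8 with an FPKM of at least 100 (added after seeing the data), and 89 and 42 with a threshold of 1. Depth limits Nov, whose 87 and 178 fragments leave its difference between 0.46 and 1.23, and Wisp3, with 1 and 0 fragments.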

Other observations

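The nearest kept genes on either side of each member along its chromosome, 20 in all, were read after the members' values had been seen, as a description without a test. Of these neighbours, 1 differed by at least 0.5 in either direction, where 5.75% of all genes kept did. It was Tnfrsf11b, which encodes the decoy receptor osteoprotegerin and lies 467 kb from Nov, with an FPKM of 5.80 in the sham library and 10.75 in the irradiated library, a difference of 0.88. On the other side of Nov, Enpp2, the gene of the lysophospholipase autotaxin, had 25.01 and 18.7, a difference of -0.42. Beside Ankrd1, Rpp30 at 7.2 kb had a difference of 0.03 and Pcgf5 one of 0.17, and beside Ctgf, Enpp1 at 39.2 kb had 0.10. Next to Cyr61, Znhit6 had 0.21 and Ddah1 0.23.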
